A study of Canis lupus familiaris with 51 samples.

Results

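The gelsolin family comprises proteins that sever, cap or bundle actin filaments, and its transcripts were followed here in canine cutaneous mast cell tumors (MCTs), skin tumors of dogs. Members were the genes GSN, CAPG, SCIN, VIL1, AVIL, FLII and SVIL, and every array probe whose gene name, gene number or transcript cluster pointed to 1 of them was kept. This gave 12 of the 43603 probes of the array and 6 of the 7 members, since no probe was matched to VIL1, which codes for villin of the brush border. Each of the 51 arrays held total RNA from the central part of 1 spontaneous tumor removed at surgery, labelled with 1 dye. The sample labels named 30 female and 19 male dogs, with the sex of 2 dogs not given, and 9 Boxers, 9 Labrador Retrievers, 14 Crossbred dogs, 17 dogs of other breeds and 2 of no stated breed. Ages of 49 dogs ran from 3 to 14 years, with a median of 8 years. No treatment, genotype or tumor class stands in these labels, so the division into differentiated and undifferentiated tumors was not used here, and the tumors were analysed as 1 group of 51 with no untreated or normal skin control.

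Gelsolin, the product of GSN, is a calcium-dependent protein that cuts actin filaments and caps their fast-growing ends, and it exists as a cytoplasmic form and a secreted plasma form. CAPG caps filaments without cutting them, SCIN (adseverin) is a severing protein known from secretory and blood cells, where cutting of the cortical actin accompanies exocytosis, and AVIL (advillin) bundles filaments in sensory neurons and chemosensory cells. FLII (flightless-1) joins gelsolin repeats to leucine-rich repeats and also acts with nuclear receptors, and SVIL (supervillin) links actin to membranes and myosin. Mast cells release preformed granules through an actin cortex, fibroblasts and smooth muscle are rich in gelsolin, and a tumor biopsy mixes all of these cells.

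The probes are shown because each value below is the signal of 1 such oligonucleotide of 60 bases, read 5′ to 3′ in the sense of the transcript and taken from the scanner output, with no letters in capitals because no position is singled out. GSN probe 4 and GSN probe 3 lie upstream of the others in the gene, and each relative is shown by its brightest probe, except AVIL, where the probe that carries the gene's name on the array is shown:
GSN probe 4: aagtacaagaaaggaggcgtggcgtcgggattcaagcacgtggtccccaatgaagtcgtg
GSN probe 3: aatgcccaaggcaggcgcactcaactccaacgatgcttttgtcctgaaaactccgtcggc
CAPG probe 1: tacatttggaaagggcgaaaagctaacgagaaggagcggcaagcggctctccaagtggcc
SCIN probe 1: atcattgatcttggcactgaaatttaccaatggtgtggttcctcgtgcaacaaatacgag
AVIL probe 2: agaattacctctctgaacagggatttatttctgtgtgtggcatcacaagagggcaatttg
FLII probe 1: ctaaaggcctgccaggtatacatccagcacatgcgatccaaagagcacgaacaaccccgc
SVIL probe 1: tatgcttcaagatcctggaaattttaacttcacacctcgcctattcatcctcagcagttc
The scanner output, which names no genome build, placed GSN probe 4 at chr11:77277502-77282442, a span of 4941 bases for 60 bases of probe, so that the probe crosses an intron there. It placed GSN probe 3 at chr11:77293398-77293457, CAPG probe 1 at chr17:42701820-42703525, SCIN probe 1 at chr14:30360394-30374951, AVIL probe 2 at chr10:4839299-4840872, FLII probe 1 at chr5:44313726-44313864 and SVIL probe 1 at chr2:18898171-18900216. GSN probe 1 and GSN probe 2, at chr11:77295425-77295484 and chr11:77295436-77295495, share a run of 48 bases, and are therefore close to 1 measurement made on the array under 2 names. The study's own PCR assay for GSN used this pair of primers, shown to identify the assay:
GSN forward primer: cctgggacagcttcaacaac
GSN reverse primer: ccgcaccactggtagatgt

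GSN was bright in every tumor and differed widely between them. On the log2 scale of the normalized intensity, GSN probe 1 ran from 15.75 to 18.27 with a median of 17.73, which is a 5.72-fold range. GSN probe 2 ran from 14.68 to 17.55 with a median of 17.03. Most tumors lay close to the top of these ranges and a few lay far below, with LM0 lowest on both probes. GSN probe 3 ran from 11.95 to 16.25 with a median of 15.01, and GSN probe 4 ran from 8.34 to 13.57 with a median of 12.04, a 37.7-fold range. T9 was lowest on these 2 probes and LM0 came next. The SD over the 51 tumors rose from 0.58 for GSN probe 1 to 1.11 for GSN probe 4, so the tumors were spread more widely on the dimmer probes. No spot of a member was saturated. The 4 probes followed each other with Pearson r between 0.85 and 0.98 over the 51 tumors.

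The relatives did not share this shape. CAPG ran from 13.85 to 15.51 with a median of 14.53 and an SD of 0.42, and T130 was highest. SCIN was spread as widely as GSN probe 4, from 9.47 to 14.26 with a median of 11.71 and an SD of 1.09. SCIN thus had no floor or ceiling shared by most tumors, and its highest tumor was T107. AVIL probe 1 ran from 6.71 to 9.21 with a median of 8.12, and AVIL probe 2 from 4.83 to 7.83 with a median of 6.36. Both AVIL probes were lowest in T84, and they followed each other with r = 0.96. FLII probe 1 varied least, from 10.51 to 12.07 with a median of 11.26 and an SD of 0.27, against a median SD of 0.47 over the 29922 probes well above background on at least 26 arrays. FLII probe 2 ran from 6.91 to 9.00 with a median of 8.04, and followed FLII probe 1 with r = 0.73. SVIL probe 1 ran from 5.37 to 7.91 with a median of 6.40. SVIL probe 2 was well above background on 10 of the 51 arrays and followed SVIL probe 1 with r = 0.50 only, so the values of SVIL below are those of SVIL probe 1, which passed on 50 arrays. The other members passed on all 51 arrays with each of their probes.

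**Figure D1:**
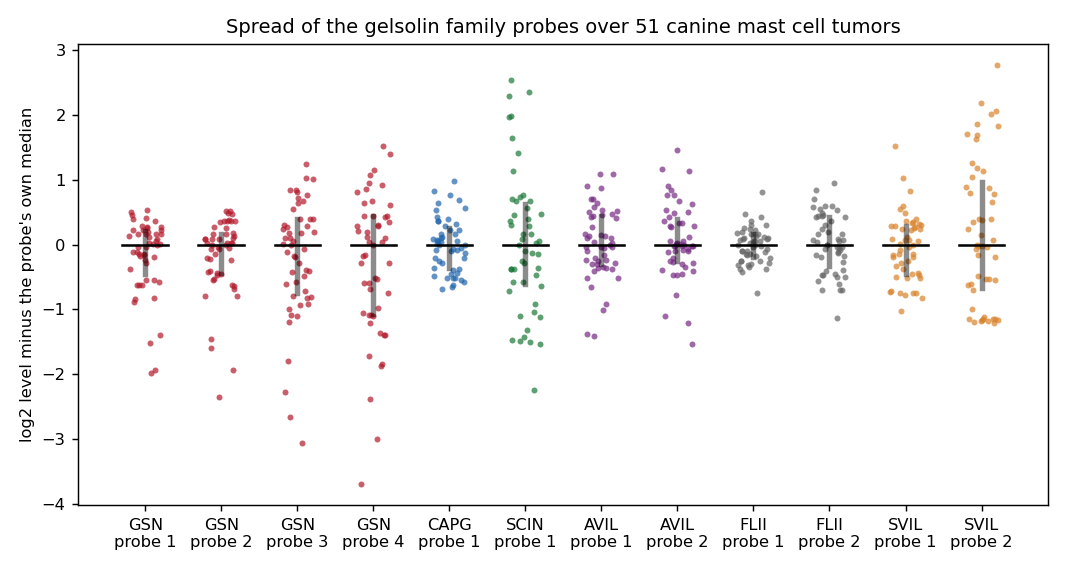
Each point is 1 of the 51 tumors, and the y axis gives its log2 level minus the median of the same probe. Black horizontal lines mark the medians, grey vertical bars the interquartile range, and the GSN probes show a tail of low tumors that reaches further down from GSN probe 1 (SD 0.58) to GSN probe 4 (SD 1.11).

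The scores used below summarise gene lists. A score is the mean, over the measured genes of a list, of each gene's standardised log2 level, rescaled to an SD of 1, and the lists held 29 proliferation genes, 29 genes of fibroblasts and matrix (stroma) and 10 mast cell genes. Of the 17 mast cell genes listed, 10 were measured, and 9 of these 10 were well above background on all 51 arrays. Among them the chymase gene CMA1 ran from 14.65 to 17.87, the receptor gene KIT from 9.11 to 15.04 and the IgE receptor gene FCER1A from 14.51 to 17.37, while CTSG passed on 36 arrays. Genes of other cells were detected as widely: 26 of the 29 stroma genes and 10 of the 11 macrophage genes were well above background on every array. Detection alone therefore does not single out mast cells. Arrays came from 15 slides and 9 scan sessions, 6 of which held at least 6 arrays, and 59.4 to 74.8% of the spots of an array were well above background.

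GSN fell as the proliferation genes rose, and no relative was called as falling with them. Over the 51 tumors the level of GSN probe 1 correlated with the proliferation score at r = -0.82 and Spearman rho = -0.80. The permutation p was 1e-05 for both, the smallest that 100000 permutations can give. Adjusted over the 66 relations of 6 members with 11 scores, the permutation p was 0.000165 for r and 0.000396 for rho. In limma fits across all probes, GSN probe 1 fell by 0.48 ± 0.047 (SE, n = 51) on the log2 scale for each SD of the score, with an adjusted p of 2.0e-11. The coefficients of GSN probe 2, GSN probe 3 and GSN probe 4 were -0.50, -0.75 and -0.78, and all passed an adjusted p of 0.01, the limit for a call here. Thus 4 of the 12 member probes were called, all in the negative direction and all of GSN, beside 8.39% of all probes tested, of which 3.74% were negative and 4.65% positive. The 3 tumors lowest on GSN probe 1, at 15.75 in LM0, 15.80 in T57 and 16.21 in T114, had proliferation scores of 2.36, 2.0 and 1.91, which were among the 4 highest. T115 went against the trend, with a score of 1.55 and a GSN level of 17.73. In bulk RNA such a fall can come from fewer cells that express a gene or from less transcript per cell, and these cannot be told apart.

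The relation of GSN with proliferation did not rest on single tumors or on a scan session. Without the 2 tumors farthest from the median score, LM0 and T57, r was -0.78, and leaving out each tumor in turn gave r from -0.86 to -0.80. After removal of the session means r was -0.84, and within the 6 sessions of at least 6 arrays it ran from -0.95 to -0.63. Replacing the brightest probe by GSN probe 4 gave r = -0.71.

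CAPG pointed the other way, with r = 0.42 to the proliferation score and an adjusted permutation p of 0.00962, although its coefficient of 0.18 ± 0.054 per SD had an adjusted p of 0.0186 in the limma fit and was not called. It was called under 75th percentile scaling (0.23, adjusted p = 0.00411) and with the slide as a random block (0.20, adjusted p = 0.00419). The coefficients of the remaining relatives lay between -0.08 for SVIL probe 1 and 0.10 for SCIN, none of them called. To compare GSN with its relatives directly, the slope of each brightest probe was subtracted from that of GSN probe 1 and tested by permutation of the tumors, with p adjusted over the 10 differences made. The slope on proliferation was lower for GSN than for CAPG, with a difference of -0.65 (95% interval -0.80 to -0.51, adjusted permutation p = 5e-05). It was also lower than that of SCIN, with a difference of -0.58 (-0.92 to -0.23, adjusted permutation p = 0.00181). For AVIL, FLII and SVIL the differences were -0.41, -0.51 and -0.40, with adjusted permutation p of 5e-04, 5e-05 and 0.00018. GSN therefore differed from each of the 5 relatives in this respect. The study had, however, already selected GSN from these same arrays as a marker that was lower in undifferentiated tumors. Most of its other markers were genes of mitosis. The p-values given here for GSN make no allowance for that selection, which the relatives did not undergo as markers.

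**Figure D2:**
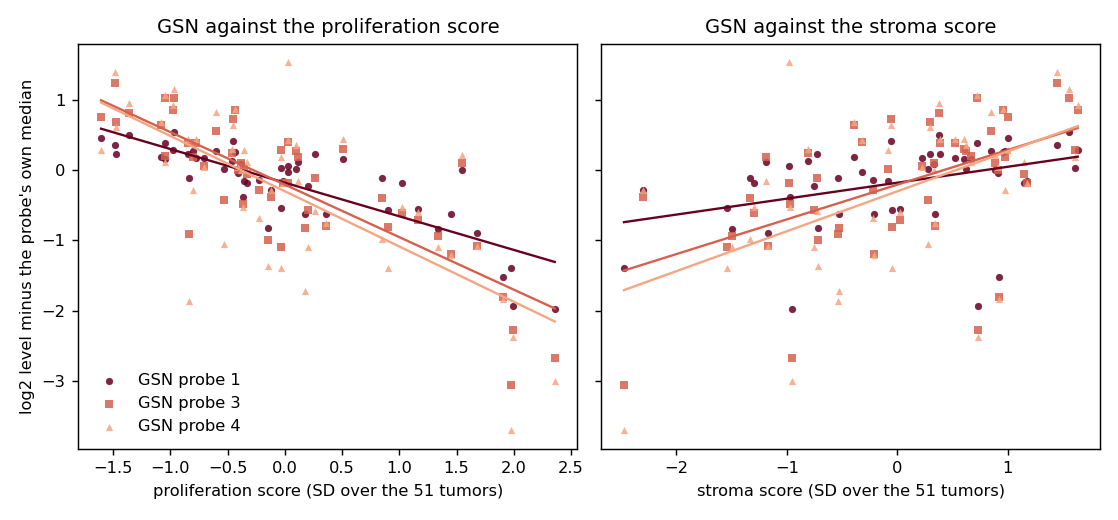
Log2 level of 3 GSN probes, each minus its own median, against the proliferation score (left) and the stroma score (right), both in SD over the 51 tumors; each point is 1 tumor and lines are least squares fits. The fall with proliferation is seen on all 3 probes (r = -0.82, -0.81 and -0.71), and the rise with stroma is steeper on GSN probe 3 and GSN probe 4.

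GSN followed the stroma score too, but more loosely. The correlation of GSN probe 1 with stroma was r = 0.39 (adjusted permutation p = 0.0186) and rho = 0.48 (adjusted permutation p = 0.00409). Pearson r was 0.33 without T9 and T130, with an adjusted permutation p of 0.0823. Leaving out T9 alone also ended the call by r (r = 0.32). GSN probe 3 and GSN probe 4 correlated with stroma at 0.54 and 0.51. In the limma fit 4 of the 12 member probes were called, beside 9.02% of all probes, of which 4.84% were positive and 4.19% negative. GSN probe 3 and GSN probe 4 were positive, at 0.49 ± 0.11 (adjusted p = 0.00081) and 0.57 ± 0.13 (adjusted p = 0.0017), whereas GSN probe 1 and GSN probe 2 were not called at 0.23 and 0.26. With the slide as a random block GSN probe 2 was called as well (0.28, adjusted p = 0.00739). CAPG, at -0.24 ± 0.049 (adjusted p = 0.00027), and SCIN, at -0.50 ± 0.14 (adjusted p = 0.0070), moved in the opposite direction to stroma. The slope of GSN probe 1 on stroma exceeded that of CAPG by 0.47 and that of SCIN by 0.73, with adjusted permutation p of 6.67e-05 and 7.5e-05. It exceeded that of AVIL by 0.26 (adjusted permutation p = 0.0296) and that of FLII by 0.25 (adjusted permutation p = 0.00722), and differed from that of SVIL by 0.16 (95% interval -0.05 to 0.37, adjusted permutation p = 0.135).

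The proliferation and stroma scores were themselves inversely related (r = -0.40), so both were placed in 1 fit. At a fixed stroma score GSN probe 1 fell by 0.46 ± 0.052 for each SD of proliferation (limma adjusted p = 1.4e-09), little less than in the fit without stroma. GSN probe 2, GSN probe 3 and GSN probe 4 had coefficients of -0.48, -0.65 and -0.66 and were called as well. These were again the only 4 of 12 member probes called, beside 8.96% of all probes. At a fixed proliferation score no GSN probe was called for stroma: the coefficients were 0.04 for GSN probe 1 (95% interval -0.06 to 0.14), 0.07 for GSN probe 2, 0.23 for GSN probe 3 and 0.30 for GSN probe 4. The last 2 had 95% intervals above 0, from 0.07 to 0.38 and from 0.07 to 0.53, with limma adjusted p of 0.033 and 0.065. CAPG (-0.20 ± 0.052, adjusted p = 0.0044) and SCIN (-0.55 ± 0.15, adjusted p = 0.0070) were the 2 of 12 member probes called for stroma, beside 8.66% of all probes. The CAPG call was lost with 75th percentile scaling (-0.19, adjusted p = 0.016) and the SCIN call with the slide as a random block (-0.55, adjusted p = 0.012).

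**Figure D3:**
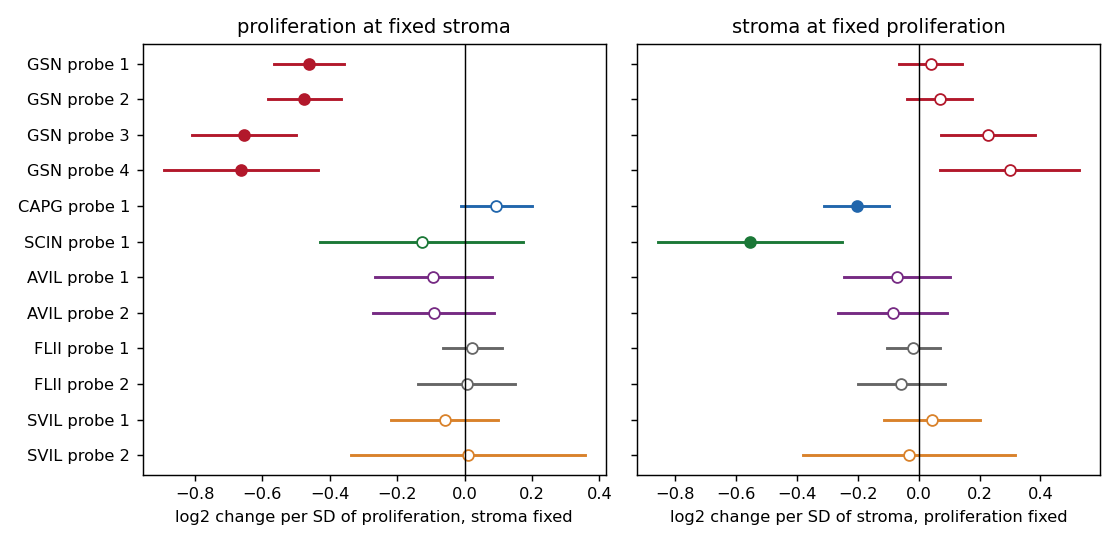
Coefficients of the 12 member probes from 1 limma fit holding both scores, as log2 change per SD of proliferation (left) and per SD of stroma (right), with 95% intervals; filled points passed an adjusted p of 0.01. All 4 GSN probes lie below 0 on the left, while CAPG and SCIN are the filled points on the right.

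Set beside the 29 stroma genes, GSN was at the edge of their range. Their correlation with the proliferation score ran from -0.73 to 0.24 with a median of -0.23. None was as low as GSN probe 1, GSN probe 2 or GSN probe 3, at -0.82, -0.83 and -0.81. GSN probe 4, at -0.71, lay inside their range, above COL14A1 at -0.73. In the limma fit 8 of the 29 stroma genes fell with proliferation and none rose, beside the 3.74% of all probes that fell. COL14A1, a collagen that binds other fibrils, had a coefficient of -1.23 ± 0.16, and FBLN5 (fibulin-5, needed for elastic fibres) one of -0.77 ± 0.12. DCN (decorin) had a coefficient of -0.24 ± 0.052, and COL1A1, the main collagen of skin, one of -0.10 ± 0.14 that was not called. With stroma as the second covariate, 3 stroma genes were called negative and 5 positive, and the median coefficient of the list was 0.04. The stroma score is the mean of these same genes, so holding it fixed balances their proliferation coefficients by construction. These values can therefore not be set against the coefficient of GSN, which is not on the list. There were 5 stroma genes with a steeper slope on proliferation than GSN probe 1, although none had a closer correlation than that probe. Against GSN probe 4, with a slope of -0.78, COL14A1 (-1.23) and MFAP4 (-0.97) were steeper.

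GSN itself was then used as the covariate. Among the relatives no probe was called for it, beside 8.83% of all probes, and the CAPG coefficient of -0.24 ± 0.097 per log2 unit of GSN had a limma adjusted p of 0.076. The correlation of GSN with CAPG was -0.34 (adjusted permutation p = 0.079 over the 15 pairs of members, rho = -0.41 with an adjusted permutation p of 0.0433). It was -0.41, with an adjusted permutation p of 0.0145, under 75th percentile scaling. GSN correlated with SCIN at -0.16, with AVIL at -0.09, with FLII at -0.10 and with SVIL at 0.06, and these 4 did not pass (adjusted permutation p of at least 0.658). Between the relatives, none of the 10 pairs passed after adjustment. AVIL and SVIL came closest at r = -0.38, with adjusted permutation p = 0.079, as did CAPG and FLII at 0.33 with the same adjusted permutation p.

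Of the 29 stroma genes 8 rose with GSN and none fell, beside 3.76% of all probes positive and 5.07% negative, and the median coefficient was 0.36 against -0.01 over all probes. The 5 highest were COL14A1 at 2.01 ± 0.29, MFAP4 at 1.57, FBLN5 at 1.25, OGN at 1.23, which was not called (adjusted p = 0.024), and TIMP3 at 1.16 log2 units per log2 unit of GSN. The 5 lowest, COL5A1 at 0.13, ELN at 0.04, COL5A2 at -0.04, PDGFRB at -0.13 and BGN at -0.49, were not called. ELN, the gene of elastin itself, thus stood at the low end, and FBLN5 and MFAP4, which also belong to elastic fibres, at the high end. The ELN probe ran only from 5.92 to 7.99, however. It was not called for the stroma score either, of which it is a part (0.01 ± 0.067, limma adjusted p = 0.93). No contrast between elastic fibre genes is therefore drawn from it.

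The actin regulators outside the family split in both directions. Of 58 measured genes, 7 were called positive and 8 negative for GSN, beside 3.76% of all probes positive and 5.07% negative. Their median coefficient was -0.05. The 5 highest were TMOD2, a tropomodulin that caps the slow-growing filament end, at 1.57 ± 0.37, WASF3, an activator of branched actin assembly, at 1.17, CTTN (cortactin) at 0.68, ADD3 (adducin) at 0.67 and EPS8, another capping protein, at 0.53. The 5 lowest were ANLN (anillin) at -1.75 ± 0.24 and DIAPH3, a formin, at -1.46 ± 0.15, then WDR1 at -0.43, TPM4 at -0.41 and PFN1 (profilin) at -0.41. TMOD2 was well above background on 37 of the 51 arrays, and WASF3 and ANLN on 28 each, so their slopes include values near background. The others named here passed on all 51 arrays. ANLN and DIAPH3 are known from the contractile ring of dividing cells, and against the proliferation score they had coefficients of 1.33 and 0.99 in turn.

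Among all 15879 named probes well above background on at least 26 arrays, the genes with a pattern most like GSN over the 51 tumors were CD99, a surface glycoprotein, at r = 0.84 and FAXDC2, a lipid hydroxylase relative, at 0.82. CLEC3B (tetranectin), at 0.78, had a median level of 9.77 and a level of 1.81 in its lowest tumor. CCN5, a matricellular protein, followed at 0.78, SELENOP, the plasma selenium carrier, at 0.77, SCP2 (sterol carrier protein) at 0.76, PLXDC1 at 0.75, ANGPTL1 at 0.75 and ABCA6, a lipid transporter, at 0.75. The most opposed were BIRC5 (survivin) at -0.86, UBE2S at -0.84, CENPA, the centromeric histone, at -0.83, CCNB3 at -0.83 and H2AZ1 at -0.82. None of these genes was on the proliferation or the stroma list. They were chosen by their correlation with GSN, which itself fell with the proliferation score. The direction of their coefficients on that score therefore followed from the choice and is no separate result. The most opposed genes had coefficients on the proliferation score of 0.858, 0.616, 0.904, 1.215 and 0.560 in turn. Those of the named genes most like GSN were all negative, from -2.039 for CLEC3B to -0.504 for CD99. The middle 90% of the ranked probes lay between -0.52 and 0.46.

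Other cell types were set against GSN in the same way. GSN correlated with the neutrophil score at r = -0.68 (adjusted permutation p = 0.000165) and rho = -0.58 (adjusted permutation p = 0.000396). Pearson r had the same direction in all 6 sessions and was -0.49 without T57 and T114. The neutrophil score held 5 genes, whose summed intensity ran from 10.1 to 18.55 on the log2 scale, and followed the proliferation score at r = 0.67. Of these 5 genes 4 were called negative for GSN, beside 5.07% of all probes. The part of neutrophil RNA in the fall of GSN was not tested. GSN correlated with the skeletal muscle score at -0.49 (adjusted permutation p = 0.00894), but at -0.25 without LM0 and T53 (adjusted permutation p = 0.206) and at -0.31 without LM0 alone, so that relation rested on LM0. Correlations with smooth muscle and pericyte (-0.02), endothelium (-0.24), macrophage (0.11), T cell (-0.01), keratinocyte (0.08) and adipocyte (0.15) scores did not pass. Nor did that with the mast cell score, at r = 0.12 and rho = -0.14.

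**Figure D4:**
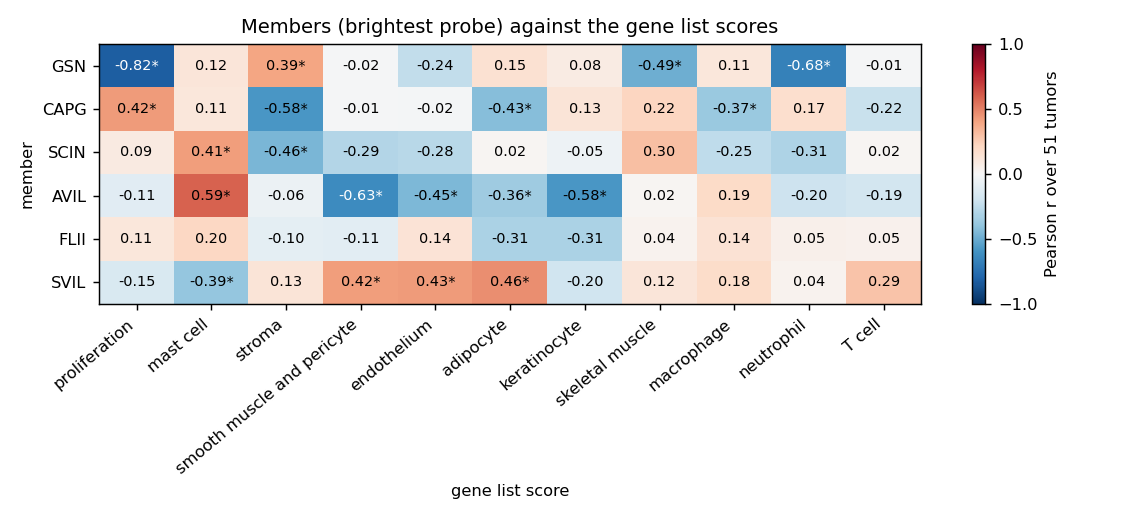
Pearson r over 51 tumors between the brightest probe of each member (rows) and 11 gene list scores (columns), coloured from -1 to 1; an asterisk marks an adjusted permutation p under 0.05. GSN stands out at -0.82 for proliferation and AVIL at 0.59 for mast cell genes, while the FLII row holds no asterisk.

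AVIL and SCIN were the members that rose with mast cell genes. AVIL probe 1 correlated with the mast cell score at r = 0.59 (adjusted permutation p = 0.00022) and rho = 0.60 (adjusted permutation p = 0.000396). Its r was positive in all 6 sessions, and its coefficient was 0.33 ± 0.064 log2 units per SD (limma adjusted p = 7.5e-05). AVIL probe 2 had a coefficient of 0.30 ± 0.070 and an adjusted p of 0.00079. These were the 2 of 12 member probes called for the mast cell score, beside 20.4% of all probes, so a call for this score was common on the array. Under 75th percentile scaling 4 member probes were called, with SCIN at 0.49 (adjusted p = 0.00581) and SVIL probe 1 at -0.25 (adjusted p = 0.00347) beside both AVIL probes. SCIN correlated with the mast cell score at 0.41 (adjusted permutation p = 0.011), again positive in all 6 sessions, and had a coefficient of 0.45 ± 0.14 with an adjusted p of 0.01006, just outside the limit, and passed at 0.00976 with the mean of a gene's probes in the scores and at 0.00736 with dim probes left out. AVIL fell with the smooth muscle and pericyte score (r = -0.63), the keratinocyte score (-0.58) and the endothelium score (-0.45), with adjusted permutation p of 0.000165, 0.00022 and 0.00733. It correlated with the adipocyte score at -0.36, a call lost when any of 15 tumors was left out. The mast cell score was itself inversely related to smooth muscle and pericyte (r = -0.73), endothelium (-0.62) and keratinocyte (-0.46) genes, and AVIL against any 1 score at a fixed value of another was not tested.

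CAPG, SVIL and FLII showed 3 further patterns. CAPG correlated with the stroma score at -0.58 (adjusted permutation p = 0.000165), with the adipocyte score at -0.43 (adjusted permutation p = 0.00894) and with the macrophage score at -0.37 (adjusted permutation p = 0.0294). CAPG is known as a protein of macrophages, yet its level did not rise with macrophage genes over these tumors. The macrophage and stroma scores were themselves related (r = 0.49), and CAPG against either at a fixed value of the other was not tested. The macrophage relation ended under 75th percentile scaling (r = -0.25, adjusted permutation p = 0.167) and when any 1 of T61, T64, T77 or T113 was left out (r from -0.34 to -0.32), and the adipocyte relation ended without T117 and T84 (r = -0.34, adjusted permutation p = 0.0801). SVIL rose with the smooth muscle and pericyte score (r = 0.42), the endothelium score (0.43) and the adipocyte score (0.46) and fell with the mast cell score (-0.39), with adjusted permutation p of 0.00962, 0.00913, 0.00619 and 0.0217. All 4 SVIL relations lost their call when the mean of both SVIL probes replaced the brighter one, at r = 0.14, 0.30, 0.32 and -0.19. T117 was the highest tumor on both SVIL probes, at 7.91 on SVIL probe 1, and without it the adipocyte relation (r = 0.32) and the mast cell relation (r = -0.35) ended. By Pearson r FLII passed with no score, its largest correlations being -0.31 with keratinocyte and -0.31 with adipocyte genes. By rank its relation with the adipocyte score did pass, at rho = -0.41 (adjusted permutation p = 0.0126).

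**Figure D5:**
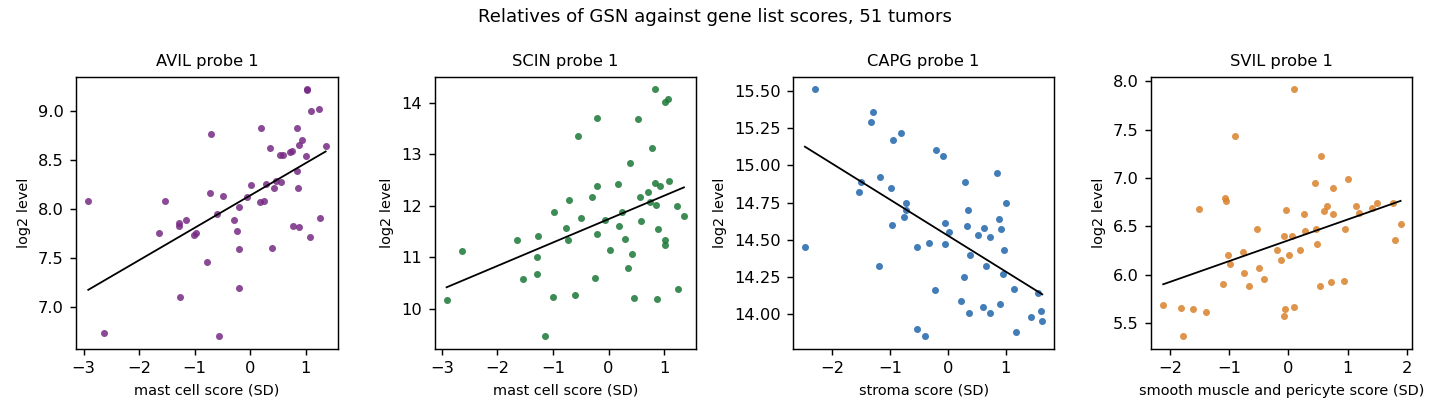
Log2 level of the brightest AVIL, SCIN, CAPG and SVIL probes against the score named on each x axis, in SD; each point is 1 of 51 tumors and lines are least squares fits. AVIL (r = 0.59) and SCIN (0.41) rise with the mast cell score, CAPG (-0.58) falls with the stroma score, and SVIL (0.42) rises with the smooth muscle and pericyte score with wide scatter.

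The groups that the labels do give were compared last. GSN probe 1 ran from 15.80 to 18.23 with a median of 17.80 in female dogs, and from 15.75 to 18.27 with a median of 17.70 in male dogs, and the 2 groups overlapped over nearly all of their range. By limma no member probe was called for sex (lowest adjusted p = 0.797), beside 0.0573% of all probes. In Boxers GSN probe 1 had a median of 17.73, in Labrador Retrievers 17.35 and in Crossbred dogs 17.79. SCIN had a median of 12.07 in Labrador Retrievers (11.33 to 14.26), against 11.34 in Boxers (10.18 to 13.36) and 11.34 in Crossbred dogs (9.47 to 14.07). The difference between Labrador Retrievers and Crossbred dogs was 1.01 ± 0.46 for SCIN (unadjusted limma p = 0.038, adjusted p = 1), and the groups overlapped. No member was called in the 3 breed contrasts, beside 0.0573% of all probes for Boxer minus Labrador Retriever, 0.0115% for Boxer minus Crossbred and 0.0161% for Labrador Retriever minus Crossbred. GSN probe 1 changed by -0.03 ± 0.031 per year of age, and 0 members and 0% of all probes were called for age by limma, with 1061 probes at an unadjusted p under 0.05.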

How the data were processed

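Tumor RNA was hybridised by the authors to 1-colour Agilent canine arrays and extracted with Feature Extraction, which subtracts background. The deposited intensity per spot (processed signal) was converted to log2 and quantile normalized over the 51 arrays, as in the study's methods. Control spots were left out, 2 to 35 outlier spots per array were set missing, and spots of a probe were averaged to 43603 probes. Of these, 18596 were named by 11266 symbols through the array names or RefSeq gene numbers. The authors' deposited table of linear normalized intensities served as an alternative. A probe well above background on at least 26 arrays was counted as detected. Arrays have no read depth, so their number limits the precision.

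Probes were fitted with limma 3.58.1 in R 4.3.3, with Benjamini-Hochberg adjustment over all probes and a limit of 0.01. Correlations used two-sided permutation tests (100000 permutations), adjusted within each family, with a limit of 0.05. The alternatives used 10000. No replicate arrays of a tumor were used, so p-values measure the spread between tumors. No values fell into separate clusters, taken as a gap over 25% of the range with at least 6 tumors on each side. The keratinocyte score, however, held no tumor between -0.212 (T89) and 0.382 (T6). Its correlations therefore largely compare tumors high and low for these genes. Named genes were the members, the 10 highest and 5 lowest correlations with GSN, and the 5 highest and 5 lowest coefficients on GSN in the stroma list and the actin list. DCN, COL1A1 and the mast cell genes CMA1, KIT, FCER1A and CTSG fall outside that rule and were chosen after their values were seen. The members and lists were chosen with earlier results of these data known, and the slope differences between GSN and its relatives were added after the values were seen. Scripts were tested on simulated data. Array coordinates are those of the scanner output, whose build is not given in the sources used here. Of the genes that the rule for patterns most like GSN names, 1 is not reported here.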

Additional observations from a re-analysis of the deposited data

Results flagged for a closer look

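Among the 24 combinations of 12 member probes with the Boxer or the Labrador Retriever group (9 tumors each), 3 held a tumor far from the others by Dixon's test, where chance alone gives about 1 in 20. In Boxers, T114 stood at 16.21 on GSN probe 1, with the next tumor at 17.44, and at 15.44 on GSN probe 2, with the next at 16.61. These 2 probes share most of their sequence and count as 1 observation, and T114 had a proliferation score of 1.91. Also in Boxers, T130 stood at 12.07 on FLII probe 1, with the next tumor at 11.43.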

How the results depend on the processing

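The alternatives were 75th percentile scaling, normexp background correction, the authors' table, outlier spots kept, scan session as a term, the mean of a gene's probes, dim probes left out, slide as a random block and, for sex, breed and age, the proliferation score as a covariate. The fall of GSN with proliferation, with and without stroma in the fit, kept its direction and call under each alternative run for it, and its correlation also when any 1 tumor was left out. For GSN and CAPG, 75th percentile scaling gave r = -0.41 and passed, and leaving out 1 tumor gave r from -0.38 to -0.28, passing without T77 only (adjusted permutation p from 10000 permutations). For GSN and stroma, r was 0.33 and no longer passed without T9 and T130, and leaving out 1 tumor gave 0.32 to 0.49. Counts of probes called between breeds, over the whole array, were small and moved: Boxer minus Labrador Retriever gave 16 with the authors' table, 16 with the slide as a block and 6 with scan session. Boxer minus Crossbred gave 2 with normexp, 2 with the authors' table and 0 with scan session, and Labrador Retriever minus Crossbred gave 2 with normexp and 4 each with the authors' table, scan session and dim probes left out. The causes were not tested. Stroma calls of CAPG and SCIN at fixed proliferation fell from 2 to 1 in 2 settings. In the authors' table SVIL has a value in 36 of the 51 tumors. The brightest GSN probes sit near the top of the signal range and spread less than the dimmer ones, and SVIL is close to background. No paired analysis was possible because the tumors form 1 group, 1 array each, and breeds or sexes share no replicate number.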
